A study of Mus musculus with 1152 samples.

Results

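Il33, the gene of the alarmin interleukin-33, was followed in single lymphatic endothelial cells (LECs) from aged mice, taken from the nasopharyngeal lymphatic plexus (NPLP). It was 1 gene of the 23168 in the expression table and was taken by its symbol. The cells belonged to a single labelled group, aged NPLP LECs of the C57BL/6 strain, positive for CD31 and podoplanin (PDPN), sorted by flow cytometry and sequenced by Smart-seq3, which reads full-length transcripts of single cells in plates. The labels gave no age in weeks, no treatment and no altered allele. By the methods, mucosa of aged mice of both sexes had been pooled, dead cells had been excluded with a viability dye, and 1 sorted cell had gone into each well. No animal was named for any cell, so the cells analysed, 56.9% of those labelled, counted as 1 pooled sample without replicates, and every interval below covers counting error only.

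Interleukin-33 is a cytokine of the interleukin-1 family that is held in the nucleus on chromatin and is released when a cell is damaged. Outside the cell it binds the receptor ST2, encoded by Il1rl1, which pairs with the accessory protein of Il1rap and signals through Myd88, the IRAK kinases and Traf6. Endothelial cells, barrier epithelia and fibroblastic stromal cells are its known sources, and the mRNA measured here says nothing of how much protein was stored or released.

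Il33 lies on the plus strand of mouse chromosome 19, at chr19:29925114-29960718 in the GRCm38 assembly. GENCODE M21 lists 5 transcripts, of which 2 hold the longest coding sequence in 8 exons and begin at different start sites. No exon of Il33 overlaps an exon of another annotated gene, so by this annotation its reads are not shared with a neighbour. The deposited values sum all transcripts of the gene, and use of the 2 start sites was not analysed here. The 250 bases before each RefSeq start site are shown because every Il33 read counted below came from transcripts of this locus. Capitals mark letters found by a search of both strands for a TATA box (TATAAA), a forkhead motif (TGTTTAC), an RBPJ motif (TGGGAA), an AP-1 motif (TGANTCA) and an ETS motif (AGGAAG).
Il33 distal start, chr19:29924863-29925112, plus strand: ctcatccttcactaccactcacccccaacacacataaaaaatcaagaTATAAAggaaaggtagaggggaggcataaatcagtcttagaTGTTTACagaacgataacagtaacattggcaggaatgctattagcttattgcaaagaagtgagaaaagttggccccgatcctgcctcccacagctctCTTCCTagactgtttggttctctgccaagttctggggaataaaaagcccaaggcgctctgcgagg
Il33 proximal start, chr19:29945540-29945789, plus strand: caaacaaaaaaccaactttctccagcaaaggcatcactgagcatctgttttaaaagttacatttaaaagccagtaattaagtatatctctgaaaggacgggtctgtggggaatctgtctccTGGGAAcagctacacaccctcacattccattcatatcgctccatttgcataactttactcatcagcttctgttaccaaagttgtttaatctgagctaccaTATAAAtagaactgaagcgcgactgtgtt
In the proximal window the TATA letters began 29 bases before the start site, and in the distal window much farther from it. Of 32851 windows of this length in the mouse promoter table, 12.37% held the TATA letters. The forkhead letters stood only in the distal window, and in 3.17% of all windows. The ETS letters, on the minus strand 65 bases before the distal start, were in 29.48% of all windows, and the RBPJ letters, in the proximal window, in 21.59%. Neither window held the AP-1 letters, which were in 6.75% of all windows. None of the motifs found overlapped another, and a match describes letters and not a bound factor.

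The cells carried the transcripts of LECs. The 8 lymphatic identity genes were detected in 72.6% (Sox18) to 100% (Flt4, Mmrn1) of cells, with a median of 96.95%. Markers of other cell types that the sort could have let through were also read, first those of the known sources of Il33. The epithelial genes Epcam and Krt18 were at 0 reads in all cells and Krt8 was in 0.610%, and the fibroblast list had a median share of 2.13%, with 1.83% for Lum and 30.03% for Dcn. Medians were 1.07% for haematopoietic and mural genes and 1.83% for glial genes. The cycling genes had a median share of 0.762%, with Cdk1 at 0, Mki67 in 4.12% and Pcna in 70.4%. The blood endothelial list ran from 2.44% (Flt1) to 96.2% (Emcn). Depth ranged from 7046 to 10727631 reads per cell with a median of 148202.

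Il33 was found in most cells, at widely different levels. Its transcript was detected in 61.7% of cells (exact 95% interval 57.9 to 65.5%). On the deposited scale, the natural log (ln) of 1 plus reads per 10000, the mean was 0.58 ± 0.74 (SD over cells), the median 0.12, the upper quartile 1.09 and the highest cell 3.08. On the linear scale this was a mean of 1.49 reads per 10000. The level was concentrated in a minority of cells: the 66 highest held 52.6% of the summed level. By mean ln level Il33 ranked 1384th of the 23168 genes. Among the 5279 genes detected in at least 30% of cells, its variance beyond the trend on the mean had a percentile of 93.9. By this measure it varied more between cells than most genes of its level. By the selection used for clustering, Il33 was not among the 2000 variable genes, nor among those of any alternative clustering setting.

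Read numbers show how thin the evidence was in many positive cells. Over all cells there were 85971 Il33 reads, with a median of 10 in the positive cells and 5400 in the cell with most. Of the positive cells, 26.2% had exactly 2 reads and 10.6% exactly 4, but 1.23% had 1 read and 0.988% had 3. Even numbers made up 85.4% of the positive values for Il33 and 79.9% of all values above 0 in the table, so read numbers were mostly even. Whether 2 reads were both ends of 1 fragment is not given in the sources used here. At least 3 reads were present in 44.8% of cells and at least 100 in 94 cells. Reads were not collapsed to molecules, so PCR copies count as reads.

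The share of positive cells depended on depth. In 4 equal groups of cells ordered by depth, the share was 48.8% in the shallowest (median 18620 reads), 57.3% in the next (73542), 64.6% in the next (293158.5) and 76.2% (interval 68.96 to 82.5%) in the deepest (1702972). The order was lost when each cell was thinned to 20000 reads. Shares were then 53.9%, 46.3%, 43.3% and 45.7%, with overlapping intervals. Over the cells deep enough to be thinned, 46.3% (42.1 to 50.5%) kept an Il33 read. Thinning to 5000 reads left 29.7% and to 50000 reads 52.1%. The mean level depended less on depth: it was 0.59, 0.52, 0.53 and 0.69 in the 4 groups.

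**Figure D1:**
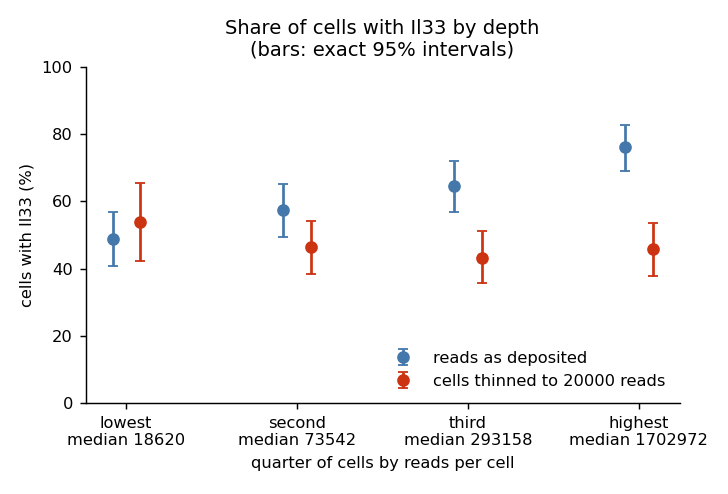
Share of cells with at least 1 Il33 read (percent, y axis) in 4 equal groups of cells by reads per cell (x axis), as deposited and after thinning to 20000 reads, with exact 95% intervals. The share as deposited climbs from 48.8% to 76.2% with depth, while the thinned shares lie between 43.3% and 53.9%; only 76 cells of the shallowest group could be thinned.

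Cell numbers ran in 12 blocks of 96, which the labels did not tie to a plate. The mean Il33 level per block ranged from 0.38 to 0.74 (SD of the block means 0.11), and the thinned share ranged from 29.7% to 60.4%. Blocks held 18 to 83 cells, with median depths of 52583 to 2450279.5 reads.

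Where among the LEC classes Il33 was high was asked by clustering the cells as in the study, without Il33 among the genes used. In 5 clusters the mean Il33 level ran from 0.11 to 0.94. It was highest in cluster 3, the 16.01% of cells led by Tppp3, Fbln7 and Slc4a11. The capillary markers Fndc1, Reln and Ccl21a were raised there, and it is called Ptx3- capillary-like. The other marker of that list, Ptn, was not raised there and was higher in cluster 4 (mean ln 0.99 against 0.55 in cluster 3). The mean Il33 level was lowest in cluster 5, the 11.6% of cells led by Fxyd2, Gdf15 and Gdf10. The upstream valve markers Cldn11, Gata2 and Neo1 were raised there, and it is called upstream-valve-like. Foxc2 and Itga9 of the same list were not raised there, while the downstream valve marker Esam was. The stress cytokine gene Gdf15 and the inflammatory cytokine gene Il6 were also among its leading genes. On the linear scale the means of clusters 3 and 5 were 2.50 and 0.181 reads per 10000, a 13.8-fold difference.

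The other clusters lay between these and close to each other. Cluster 1, 30.8% of cells, was led by Gm525, Gpx3 and Stab2. It is called Ptx3+ capillary-like for its raised Ptx3, Stab2, Mrc1, Itih5 and Kcnj8. Lyve1 of the same list was not raised there (mean ln 2.37 against 3.35 in cluster 3). The mean ln level of Il33 in cluster 1 was 0.59. Cluster 2, 25.8% of cells, led by Ahsg, Spp1 and Kng2 with raised Foxp2, Apoe and Bmp4, had 0.56. It was left unnamed, because its other precollecting marker, Lyve1, was lower there (mean ln 1.12) than in clusters 1, 3 and 4. A further reason was that Apoe and Bmp4 had been listed with earlier results of these cells in view. The lists behind the other cluster names were also chosen with such results known, so those names are not independent of these data. Cluster 4, 15.9% of cells, led by Anxa8, Pthlh and Ptn and also unnamed, had 0.58. The SD over cells was 0.67 to 0.77 in these 3 clusters, far above the differences between their means.

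The highest and lowest clusters were the same in the thinned shares. In the Ptx3- capillary-like cluster 69.3% of thinned cells (58.6 to 78.7%) kept Il33. The values were 47.7% (36.8 to 58.7%) in cluster 4, 46.7% (38.6 to 54.97%) in cluster 2 and 44.9% (37.4 to 52.6%) in the Ptx3+ capillary-like cluster, so these 3 could not be ordered. The upstream-valve-like cluster had 11 of 66 thinned cells with Il33, 16.7% (8.62 to 27.9%). Its interval lay below those of all other clusters, whereas that of the highest cluster touched the interval of cluster 4. Median depth before thinning ran from 63447 reads in cluster 4 to 198935.5 in the upstream-valve-like cluster, and its part in the cluster differences was not tested. With reads taken 2 at a time, a choice made after the data were seen, the shares in the highest and lowest clusters were 60.2% (49.2 to 70.5%) and 8.96% (3.36 to 18.5%).

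**Figure D2:**
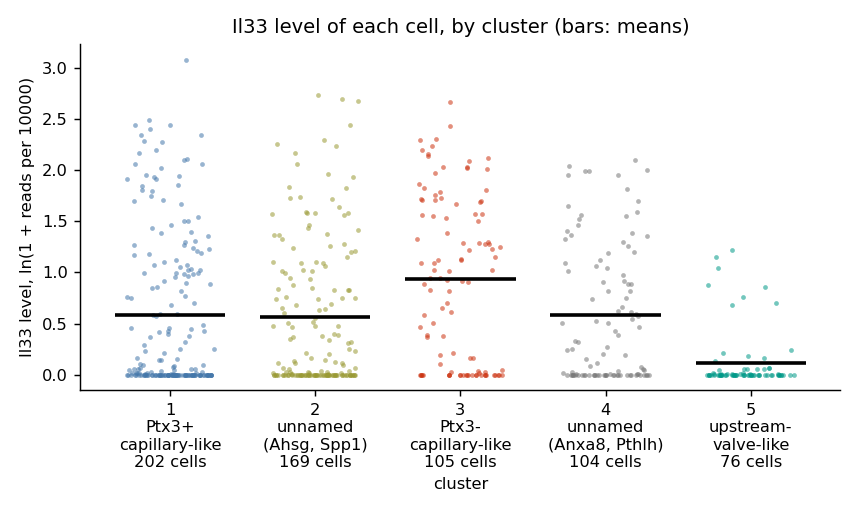
Il33 level of each cell, ln(1 + reads per 10000), on the y axis, by cluster on the x axis; each point is 1 cell and each bar the cluster mean. Cluster 3 has the highest mean (0.94) and cluster 5 the lowest (0.11), with no cell of cluster 5 above 1.22, while cells at 0 occur in every cluster.

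Single cells overlapped between all clusters. In the upstream-valve-like cluster the highest cell reached 1.22 and 38.2% of cells had any read, against a highest cell of 2.67 and 75.2% in the Ptx3- capillary-like cluster. The highest Il33 level of all cells, 3.08, was in the Ptx3+ capillary-like cluster. The difference also stood within blocks. In all 10 blocks with at least 3 cells of both clusters the Ptx3- capillary-like mean was above the upstream-valve-like mean. The upstream-valve-like mean was the lowest of the 5 in 9 of these blocks; in the other, block 10, the 2 cells of cluster 4 were at 0. The Ptx3- capillary-like mean was not always the highest, for example in block 6, where it was 0.40 against 0.88 in cluster 2.

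**Figure D3:**
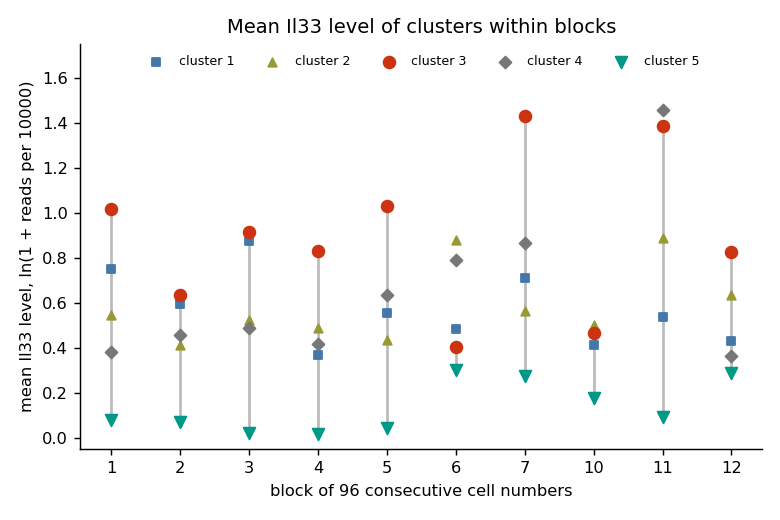
Mean Il33 level, ln(1 + reads per 10000), on the y axis, of each cluster within 10 blocks of 96 consecutive cell numbers on the x axis; clusters with fewer than 3 cells in a block are not drawn, and grey lines join clusters 3 and 5. Cluster 3 lies above cluster 5 in all 10 blocks, but close to it in block 6 (0.40 against 0.30).

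Classes cut directly from marker pairs gave a smaller spread. Only cells that fitted a single pair were used. Cells with Fndc1 and Ptn had the highest mean Il33 level, 0.82, with Il33 in 21 of 30 cells. Cells with Ptx3 and Stab2 had 0.63 (9 of 14 cells) and cells with Foxp2 and Lyve1 0.57 (47 of 81 cells). Valve-type cells were lowest: 0.49 with Cldn11 and Gja4 (24 of 41 cells) and 0.44 with Cldn11 without Gja4 (20 of 40 cells). The highest and lowest pairs had overlapping intervals for the share, 50.6 to 85.3% and 33.8 to 66.2%. The order of capillary above valve cells was that of the clusters, none of which was named downstream-valve-like. The low level of cluster 5 was not a property of all cells with Cldn11. Pairs were compared on values as deposited, and the part of depth in their differences was not tested.

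Other genes were then ranked by how their level followed that of Il33 over the thinned cells, by Spearman's rho with ranks adjusted for the number of genes detected. All points came from 1 pool and shared their depth after thinning, and the rho values are descriptions without p-values. The median rho over 7751 genes detected in at least 10% of thinned cells was 0.00, the range -0.22 to 0.30. A rho of at least 0.2 was reached by 19 genes, 0.245% of those tested, and a rho of at most -0.2 by 2 genes, 0.0258%. With another random seed for the thinning 14 of the 19 were again at 0.2 or above and neither of the 2 at -0.2 or below. All these correlations were weak, and the 16th gene in either direction (0.21 and -0.14) was level with the 15th (0.21 and -0.14), so the lists have no natural end.

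The genes that followed Il33 most included markers of lymphatic capillaries. Mmrn1, the gene of multimerin 1 and a pan-lymphatic marker, had the highest rho, 0.30. In thinned cells with Il33 its mean ln level was 3.71 against 3.34 in those without, and its rho was above 0 in 11 of 11 blocks and 5 of 5 clusters. Reln, the gene of the secreted glycoprotein reelin, had a rho of 0.27 and means of 2.53 against 2.09. Lyve1, the hyaluronan receptor gene of capillary LECs, also had 0.27, with means of 2.23 against 1.54. For both, rho was above 0 in all 11 blocks and all 5 clusters. Blocks and clusters, here and below, split the same cells by which the genes were ranked, so such counts are no independent check. Cxcl12, the gene of a chemokine that binds CXCR4, had 0.25, with means of 0.48 against 0.27.

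The other genes of the 15 had varied roles. Cyp4b1, a cytochrome P450 gene, had a rho of 0.27, with mean ln levels of 2.44 in the Ptx3- capillary-like cluster and 0.33 in the upstream-valve-like cluster. Slco2b1, an organic anion transporter gene, had 0.25 and Xdh, the xanthine dehydrogenase gene, 0.23. Selenop, the gene of a secreted selenium carrier, had 0.22 and Serping1, the C1 inhibitor gene, 0.21. Cavin2, a caveolar coat gene, reached 0.25, the ribonuclease gene Rnase4 0.23, the tenascin gene Tnxb 0.23 and the lipid flippase gene Atp8a1 0.23. Hjurp, which encodes a histone chaperone of the centromere, and Ppp1r2, which encodes a phosphatase inhibitor, both had 0.21. Dlg1, Enpp3, Sash1 and Tgfbi were the other 4 genes at 0.2 or above. Exons of Reln, Slco2b1, Rnase4, Tnxb, Atp8a1, Selenop and Sash1, and of Tgm2, Slc4a2 and Slc6a9 named next, overlap those of another annotated gene, and how such reads were counted is not given in the sources used here.

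Genes with the lowest rho were mostly high where Il33 was low. Slc41a1, a magnesium transporter gene, was lowest at -0.22, with a mean ln level of 0.46 in thinned cells with Il33 against 0.81 in those without, and 2.01 in the upstream-valve-like cluster against 0.36 in the Ptx3- capillary-like cluster. Lama5, a laminin chain gene detected in 13.6% of thinned cells, had -0.20 and was below 0 in 11 of 11 blocks. The remaining lowest genes had rho between -0.18 and -0.14. These included Tgm2 (transglutaminase 2, -0.18), the podosome gene Sh3pxd2a (-0.18), the solute carriers Slc4a2 (-0.17), Slc6a9 (-0.17) and Slc7a1 (-0.14), the actin-severing gelsolin gene Gsn (-0.17), mt-Cytb of the mitochondrial genome (-0.17), the calcineurin regulator Rcan1 (-0.17), Jpt1 (-0.16), Gdf15 (-0.15), the plasminogen activator gene Plat (-0.15), Olfml2a (-0.15) and the polyamine enzyme gene Odc1 (-0.14). Ninj1, which encodes the protein that ruptures the plasma membrane in dying cells, had -0.17 and was below 0 in all 11 blocks and all 5 clusters.

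The likeness was then set against the clusters. Of the 15 highest genes 13 had their lowest mean in the upstream-valve-like cluster, and of the 15 lowest genes 12 had their highest mean there. With the mean rank of each cluster removed, the median rho of the 15 highest genes went from 0.23 to 0.17 and that of the 15 lowest from -0.17 to -0.12. Only Mmrn1 was then at 0.2 or above, with 0.21, and no gene at -0.2 or below. With the mean rank of each block removed, 19 genes followed, of which 18 were among the 19 above. Each of these 30 genes had the same sign under every alternative, but the alternatives used largely the same cells that had ranked the genes.

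**Figure D4:**
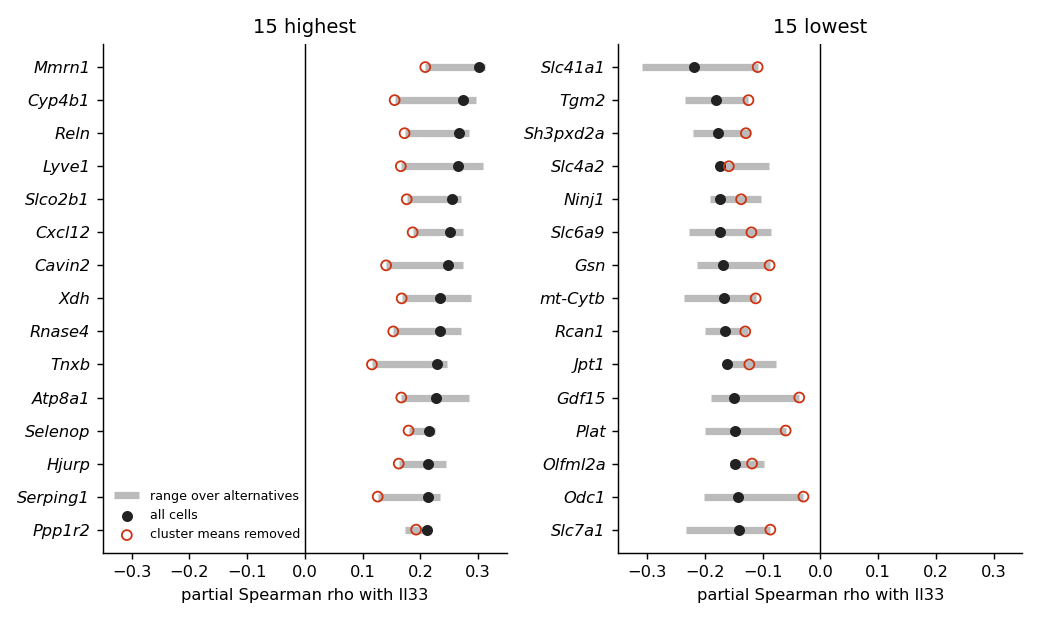
Partial Spearman rho with Il33 (x axis) of the 15 genes with the highest and the 15 with the lowest rho (y axis) over the thinned cells; filled points are all cells, open points have cluster means removed, and grey bars span the alternatives. The highest genes lie between 0.21 and 0.30 and the lowest between -0.22 and -0.14, and all open points lie on the same side of 0 as the filled points.

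By sign, the tested capillary markers lay above 0 and the tested valve markers below 0, some of them only slightly. All 5 Ptx3+ capillary markers that could be tested had a rho above 0, from 0.04 (Stab2) to 0.27 (Lyve1), with 0.16 for the potassium channel gene Kcnj8. Ptx3 itself was detected in 9.15% of thinned cells, too few to be tested. All 4 Ptx3- capillary markers were above 0, with Reln at 0.27, Fndc1 at 0.20, just under the limit of 0.2 before rounding, the chemokine gene Ccl21a at 0.12 and Ptn at 0.07; Ccl21a has near-identical copies among which reads may be split. The precollecting markers other than Lyve1 lay near 0, at 0.04 for Bmp4, 0.02 for Foxp2 and -0.02 for Apoe. The valve markers tested were all below 0, with Cldn11 at -0.11, Gata2 at -0.07 and Itga9 at -0.04 upstream, and Esam at -0.10, Klf4 at -0.05 and Gja4 at -0.01 downstream. Itga9, Klf4 and Gja4 rose to just above 0 under some alternatives. Foxc2 and Neo1 were in too few thinned cells to be tested. Over all tested genes 53.2% were above 0, and the quartiles of rho were -0.029 and 0.037. Gja4, Foxp2 and Apoe lay between these quartiles, and Stab2, Bmp4, Itga9 and Klf4 just outside them. Of all the class markers only Lyve1 and Reln passed 0.2, against the background of 0.245%, and with cluster means removed none did. Of the identity genes, Flt4, the VEGFR3 gene, had 0.13 and Prox1 -0.05.

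**Figure D5:**
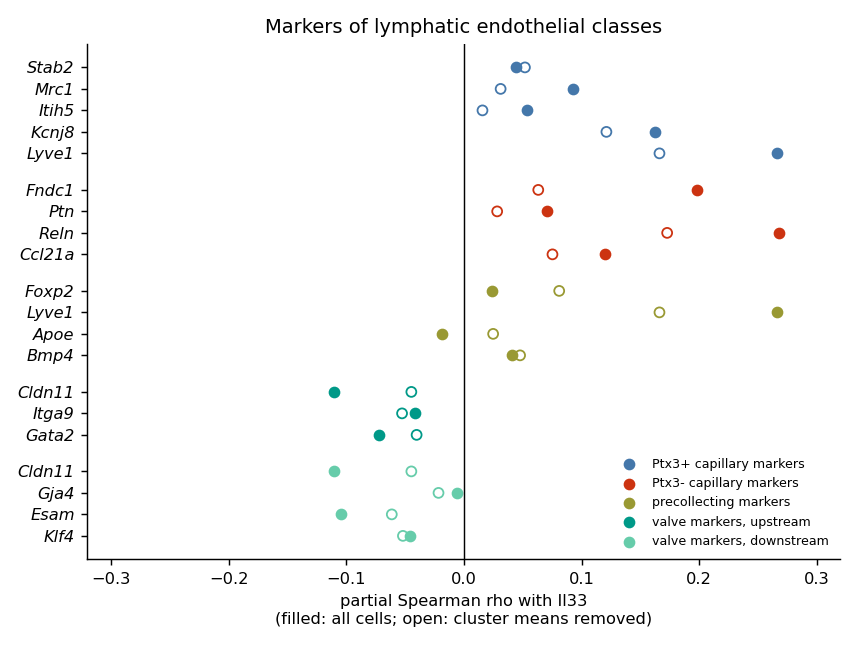
Partial Spearman rho with Il33 (x axis) of class markers detected in at least 10% of thinned cells (y axis), grouped by class; filled points are all cells and open points have cluster means removed. All 9 capillary marker points lie above 0 and all 7 valve marker points below 0, where Cldn11 is drawn in both valve lists, and most open points lie nearer 0.

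The partners of interleukin-33 signalling showed no such pattern. Il1rl1, the gene of the ligand-binding receptor, was not analysed here. Il1rap, the co-receptor gene, was detected in 10.7% of cells (8.41 to 13.3%) and in too few thinned cells to be tested. Per length, its mean was 0.00559 reads per 10000 and kilobase of exon, against 0.515 for Il33. The adaptor gene Myd88 was detected in 35.4% of cells and the inhibitory receptor gene Sigirr in 53.8%. Of the 9 receptor and signalling genes tested, 3 were above 0 and 6 below, between -0.06 (Irak1) and 0.05 (Irak3), and 0 passed the limit. Low reads in single cells cannot tell a missing transcript from one not sampled.

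Of the other ligands of the interleukin-1 family only Il1b and Il18 were analysed here, and both were detected in far fewer cells than Il33. Il1b was detected in 0.457% of cells and Il18 in 0.915%, while Il33 was in 61.7%. Il18bp, which encodes a decoy that binds interleukin-18, was detected in 33.8% with a rho of 0.00. Of the receptors, Il1r1 was in 8.54%, Il1r2 in 0.762% and Il1rl2 in 0.305%. The other barrier cytokine Tslp was in 5.03%. Il7, which encodes a lymphocyte survival cytokine, was in 73.2% of cells (69.6 to 76.5%). Its rho of 0.18 was the highest among the 4 genes tested from the list of other alarmins and barrier cytokines. That list did not hold the chemokine gene Cxcl12, which had 0.25. The rho of Il7 was above 0 in 9 of 11 blocks and 5 of 5 clusters but under the limit. The mean level of Il7 per length was 0.223 reads per 10000 and kilobase, below the 0.515 of Il33. The nuclear alarmin gene Hmgb1 was in 89.6% of cells, at 0.404 reads per 10000 and kilobase with a rho of 0.03; Hmgb2 had 0.02 and Anxa1, the annexin A1 gene, -0.09. S100a8 was in 0.610% of cells.

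Genes of proteins that cut or release interleukin-33 gave weak values. The calpain genes Capn1 and Capn2 were detected in 14.02% and 78.96% of cells, and the neutrophil protease gene Prtn3 in none, a count of 0 that by the rule of 3 counts allows up to 0.457% of cells with a read. Capn2 had a rho of 0.01, and Capn1 was in too few thinned cells to be tested. Of 9 cell death genes tested, 7 were below 0 and 2 above, where 53.2% of all tested genes were above 0. Ninj1 was the lowest at -0.17, the survival gene Mcl1 had -0.09, Gsdmd -0.06, the nucleic acid sensor gene Zbp1 -0.02 and Mlkl -0.01. The kinase genes Ripk1 and Ripk3 were the 2 above 0, both at 0.04, and none passed the limit. Values near 0, such as those of Zbp1, Mlkl and Ripk3, changed sign under some alternatives.

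Values that could move with Il33 were read beside it. Removing the 36 cells with at least 2 fibroblast markers left the mean Il33 level at 0.58 and the share at 61.3%, and the rho of Dcn with Il33 was -0.02. In thinned cells the rho of Il33 with the dissociation score was -0.07, adjusted for genes detected. With the mitochondrial share it was -0.09, without that adjustment. Reads of Xist together with reads of Y-linked genes occurred in 7.47% of cells, where the mean Il33 level was 0.48 and the median depth 1033089 reads; in the other cells these were 0.59 and 124300, and whether the former wells held more than 1 cell or stray reads was not tested. Of the 3 nearest protein-coding genes on either side on chromosome 19, only 2 were in enough thinned cells to be tested. Uhrf2, which starts 69.8 kb after Il33, had a rho of 0.02 and was detected in 55.2% of cells, and 9930021J03Rik had 0.01. Ranbp6, Gldc and Dkk1 were below the limit for testing, and Mlana had 0 reads.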

How the data were processed

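By the methods, the authors mapped Smart-seq3 reads with STAR (build mm10), summed them by gene with featureCounts of Subread, and kept cells with at least 2000 genes and at most 10% mitochondrial reads; the submitters' notes name Seurat 4.1.0. Deposited values are natural log values of 1 plus reads per 10000: the methods state log2, but exponentials minus 1 summed to 10000 in every cell, and base 2 gave 2848.75 to 4937.53. Dividing by the smallest value above 0 in a cell gave whole reads (100% within 0.01 reads). The labels held 1152 cells, of which 656 were analysed here.

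The Il33 row, the gene lists and the tests were chosen with earlier results of these data known. With no animal named there were no replicates, and no p-value was computed. Shares have exact (Clopper-Pearson) 95% intervals (scipy 1.17.1). Reads were thinned without replacement to 20000 per cell (seed 1; 568 cells, 88 shallower cells left out), and partial Spearman rho was adjusted for genes detected after thinning (numpy 2.4.6); genes in at least 10% of thinned cells were tested and called at a size of 0.2. Clustering followed the study in Seurat 5.3.0 (R 4.3.3): 2000 variable genes, regression of reads, mitochondrial share, dissociation and ribosomal scores, 15 principal components, and resolution 0.7, the lowest with at least 5 clusters. A marker was raised at 1.5 times the mean of other cells, with 0.1 per 10000 added to both, and a name needed 3. Genes named were the listed genes, the 15 highest and 15 lowest in rho among genes in at least 20% of thinned cells, and 3 neighbours on either side; Lama5, Dlg1, Enpp3, Sash1 and Tgfbi, outside this rule, were named for passing 0.2. GENCODE M21 (GRCm38) held 22258 of the 23168 symbols, and promoter windows are from RefSeq (GRCm38.p6). No doublet caller was run; by the methods 1 cell was sorted per well, and wells holding Xist together with reads of Y-linked genes were removed in 1 alternative. Of the listed genes Il1rl1, Il1a, Il1rn, the Il36 genes, Il1f10, Il18r1, Il18rap, S100a9, Il25, Areg, Ctsg, Elane, Cma1, Krt5, Krt14 and Sox10 were not analysed here, and a few other listed genes are not reported here. Read recovery, thinning and rho were run on simulated cells with counts drawn from a Poisson distribution, without the mostly even read numbers of these data. Recovery was scored only in simulated cells that held a value of 1 read, where it follows by construction. Alternatives covered cell filters, thinning depth, clustering settings, blocks and rho limits.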

Additional observations from a re-analysis of the deposited data

How the results depend on the processing

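No paired analysis was possible because the cells formed 1 group with no animal named, and depth limits every share. Of 24 alternatives, 17 kept the share of cells with Il33 inside its interval. The others gave 66.99% and 73.1% with at least 3000 and 4000 genes per cell, 44.8% at 3 or more reads, 29.7%, 46.3% and 52.1% after thinning to 5000, 20000 and 50000 reads, and 39.2% with reads taken 2 at a time and thinned to 10000 such units. Leaving out each block gave 60.6 to 62.9%. The mean level stayed within the spread between blocks in 19 of 20 alternatives and was 0.91 as the ln of 1 plus the mean of reads per 10000, by construction. The difference between the highest and lowest cluster, 0.82, moved to 0.95 at resolution 1.5, 0.38 with marker pairs in place of clusters, and 0.996 in cells with at least 100000 reads, and little in the other 9 alternatives. At resolution 1.5 none of the 18 cells of the highest cluster came from cluster 3, but all 46 of the lowest came from cluster 5.

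The number of genes called depended on the setting, and the cause was not tested. Against 19 that followed Il33, 12 did with values as deposited adjusted for reads and genes, 37 in cells with at least 100000 reads, 1 with cluster means removed and 76 at a limit of 0.15. Against 2 that opposed it, 0 did with thinned values not adjusted, with values as deposited not adjusted, with cluster means removed and with reads taken 2 at a time; 1 did with values as deposited adjusted, fibroblast-marker cells left out and the 20% filter, and 1, which was neither of the 2, with another thinning seed; 10 did at 50000 reads and in cells with at least 100000 reads, and 14 at 0.15. With another thinning seed 14 of 22 followers were among the 19, and with thinning to 50000 reads 14 of 28. Taking reads 2 at a time was chosen after seeing the data. Of 2075 rho values of named genes under alternatives, 2055 moved by less than 0.1, 20 by more, and 0 of the called genes changed sign.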

Other observations

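Genes that respond to interferon and inflammation were read beside Il33 in the thinned cells. Of 14 type I interferon genes tested, 11 had a rho above 0, with a median of 0.04, a highest value of 0.11 (Oasl2) and none at 0.2 or above, where 53.2% of all tested genes were above 0. Irf7, a regulator of interferon induction, had 0.07, and the antiviral membrane protein genes Ifitm3 and Ifitm2 had 0.10 and 0.05. The 4 MHC class I genes had a median of -0.03, with H2-K1 lowest at -0.08, and with cluster means removed the median was 0.02. The 2 MHC class II genes tested, H2-Ab1 and Cd74, had 0.04 and -0.07. Of 8 NF-kB pathway genes tested, 4 were above 0 and 4 below, from -0.09 (Nfkbia and Tnfaip3, which encode inhibitors) to 0.11 (Nfkb1).

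Of 6 Notch pathway genes tested, 4 had a rho above 0, with the ligand gene Dll4 highest at 0.10 and Rbpj, the transcription factor of the pathway, lowest at -0.07; Hey2 had 0 reads. Of 17 dissociation genes, which rise when tissue is digested, 12 were below 0, with a median of -0.03, a lowest value of -0.11 (Hsp90aa1 and Btg2) and 0.02 for Fos. None of these genes reached the limit of 0.2.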
